A study of Mus musculus with 12 samples.

Results

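Prom1, Alpl, Vcan, Snap91, Enpp2, Ndp, Ndnf, Pappa2 and Crym are 9 classic markers of the dermal papilla that are not transcription factors. They were taken by name, through the Ensembl identifiers of the deposited tables, from 25887 genes listed there, and all 9 were found and passed the filter on low values in every comparison. Of these, 7 encode surface or secreted proteins. Snap91, a clathrin assembly protein, and Crym, a cytosolic protein that binds thyroid hormone, act inside the cell, so the label of surface and secreted markers does not hold for them.

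The dermal papilla is a cluster of mesenchymal cells under the hair bulb that signals to the epithelium above it through the hair cycle. In telogen the follicle rests and the papilla is small and compact. In anagen the follicle grows down, the papilla swells and its cells lay down a matrix rich in versican, and alkaline phosphatase activity is a long-used stain for it. Secreted papilla products such as Wnt agonists, growth factors and matrix proteins act on the hair matrix, and Hedgehog from the epithelium acts back on the papilla through Smo.

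RNA from primary mouse dermal papilla cells sorted by FACS was sequenced in 12 libraries, 3 for each of 4 groups. WT mice were compared with Smo* mice, in which Smo, the membrane transducer of Hedgehog signals, has a gain of function limited to the dermal papilla. Which promoter or Cre line directs Smo* there is not given in the sources consulted. At postnatal day 20 (P20) both genotypes were female and in telogen, and at postnatal day 28 (P28) both were male. P28 WT follicles were labelled Anagen VI, the last growing substage, and P28 Smo* follicles anagen I-III. Genotype and growth stage therefore cannot be told apart at P28, and age, sex and stage cannot be told apart between P20 and P28. Separate animals are not stated by any label, so every p-value rests on spread between samples that could be technical.

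Depth ranged from 36323058 to 48926831 gene reads per library. P28 Smo* replicate 3 stood apart, with 15453 genes detected against at least 17337 in every other library and Spearman coefficients over genes of 0.959 and 0.962 with its replicates, against 0.976 to 0.979 for the other replicate pairs. A sum over 14 other papilla genes, such as Sox2, Corin and Wif1, was 28456 to 46685 normalized counts in P20 WT, 55556 to 71746 in P20 Smo* and 291296 to 325711 in P28 WT. In P28 Smo* it was 130699.8, 205003 and 33029.6 in replicates 1, 2 and 3, so replicate 3 held a papilla sum near that of P20 WT. The sum weighs its highest genes most, and some of these differ strongly between the ages or the genotypes. In P20 WT and P20 Smo*, means were 1229 and 14013 for Hhip, against 16438 and 17351 for Trps1 and 2843 and 1468 for Fgf10. Means in P20 WT and P28 WT were 4198 and 92584 for Wif1 and 546 and 73141 for Corin, against 16438 and 16829 for Trps1. All 14 genes were detected in all 12 libraries. So were all genes of the dermal fibroblast, sheath and smooth muscle, endothelial and pericyte lists, so detection does not set papilla cells apart. In P20 WT the sheath and smooth muscle markers summed to 11654 to 27115 and the pericyte markers to 12578 to 21765. Keratinocyte markers summed to 848 to 2562 in all libraries. A list of 10 dermal fibroblast markers summed to 216430 to 236609 in P20 WT and to 158619 to 194329 in P20 Smo*, without overlap. At P28 this sum was 142232 to 238247 in WT and 192971 to 242134 in Smo*. Endothelial markers summed to 1809 to 3417 in P28 WT and to 3684 to 6127 in P28 Smo*, and 3 of 10 (Pecam1, Cdh5 and Flt1) rose there, where 4.05% of 14757 genes were called higher. Adipocyte markers summed to 553 to 850.4 in P28 WT and to 1501, 484 and 15128 in P28 Smo* replicates 1, 2 and 3. The part of these other cells in the results that follow was not tested. In sorted bulk cells, fewer cells of a type and less RNA per cell cannot be told apart.

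**Figure D1:**
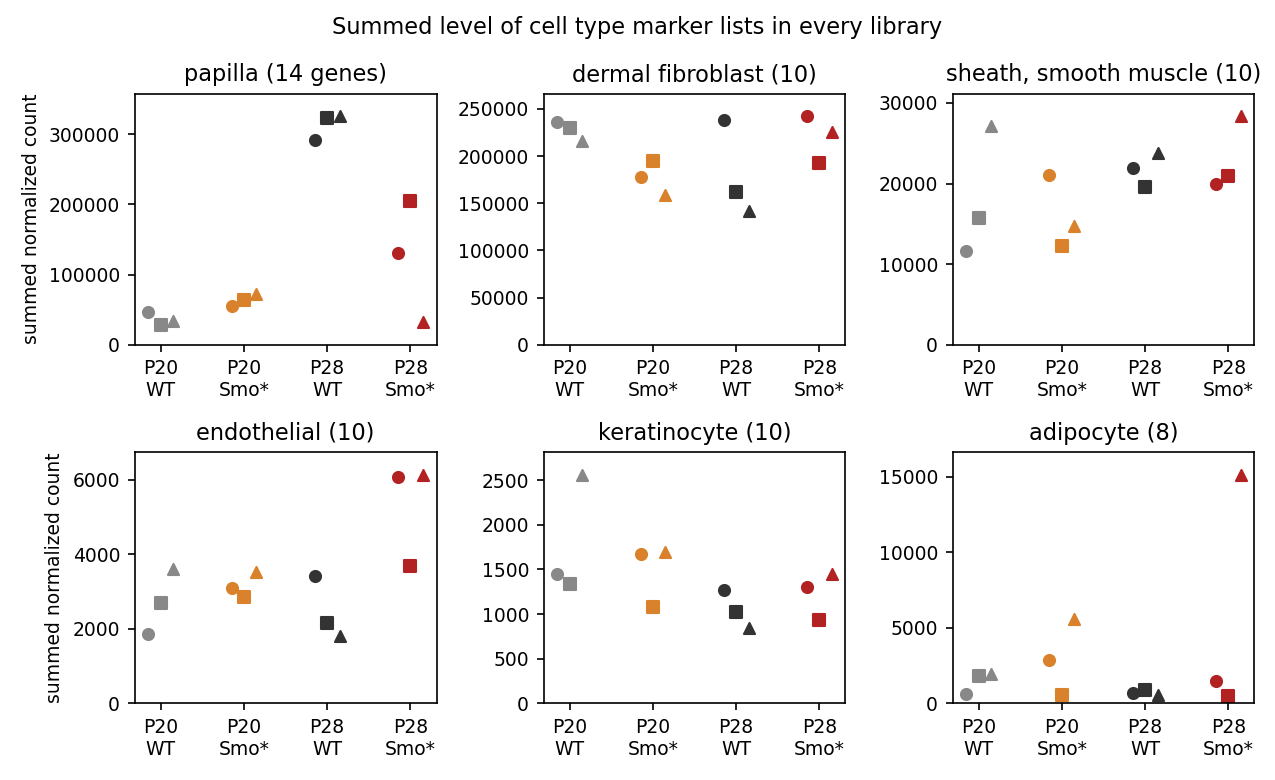
Summed normalized count (vertical axis, linear) of cell type marker lists in each of the 12 libraries, by group; circles, squares and triangles are replicates 1, 2 and 3. The papilla sum is highest in the 3 P28 WT libraries (291296 to 325711), and P28 Smo* replicate 3 (33029.6) lies within the range of P20 WT.

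Gli1, a direct Hedgehog target, served to check the genotype labels, since the gain-of-function form of Smo cannot be told from the endogenous one in gene counts. It rose from 1515 ± 645 to 4477 ± 829.9 normalized counts at P20 (SD, n = 3; limma log2 fold change 1.63, adjusted p = 0.0449) and from 1487 ± 93.0 to 4259 ± 182 at P28 (1.52, adjusted p = 0.000237). The P20 call was lost without any of 5 of the 6 libraries, P20 WT replicate 3 being the exception, with limma adjusted p of 0.0789 to 0.144. It was also lost with a minimum mean of 50 (limma adjusted p = 0.0523), with robust empirical Bayes (limma adjusted p = 0.0760) and by edgeR (adjusted p = 0.0549). These made 8 of 17 alternatives. Among those that kept the P20 call were DESeq2 (adjusted p = 1.83e-06), 1 fit of 12 libraries (limma adjusted p = 0.00450) and the authors' deposited table (adjusted p there of 8.14e-08). Smo itself was 5099.8 ± 108 in P20 WT and 7074 ± 633 in P20 Smo* (0.47, adjusted p = 0.111), and 5762 ± 364 and 7911 ± 679 at P28 (0.46, adjusted p = 0.0502).

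The upstream sequences of 4 of the genes are printed first because these genes took different courses in the data: Snap91 and Pappa2 were lower in P28 Smo* papilla, and Vcan and Ndp were not called there. Windows were taken from RefSeq (GRCm38.p6) for 6 of the 9 genes, 8 windows in all. No window is printed for Enpp2, Ndnf and Crym. Each sequence is the 250 bases before the transcription start, 5′ to 3′ on the gene's strand, with motif matches in capitals. They lie at chr9:86880709-86880958 (Snap91, minus strand), chr1:158958176-158958425 (Pappa2, minus strand), chr13:89742513-89742762 (Vcan, minus strand) and chrX:16911775-16912024 (Ndp, minus strand).
Snap91: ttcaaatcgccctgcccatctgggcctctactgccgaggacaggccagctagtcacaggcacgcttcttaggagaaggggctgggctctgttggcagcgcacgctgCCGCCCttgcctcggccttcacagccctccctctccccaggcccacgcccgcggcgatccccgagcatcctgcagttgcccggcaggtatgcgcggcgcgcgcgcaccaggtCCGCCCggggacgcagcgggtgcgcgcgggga
Pappa2: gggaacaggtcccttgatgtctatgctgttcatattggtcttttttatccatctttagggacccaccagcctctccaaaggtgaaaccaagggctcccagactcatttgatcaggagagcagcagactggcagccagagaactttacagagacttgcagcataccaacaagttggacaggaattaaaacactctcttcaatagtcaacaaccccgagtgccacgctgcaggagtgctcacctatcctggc
Vcan: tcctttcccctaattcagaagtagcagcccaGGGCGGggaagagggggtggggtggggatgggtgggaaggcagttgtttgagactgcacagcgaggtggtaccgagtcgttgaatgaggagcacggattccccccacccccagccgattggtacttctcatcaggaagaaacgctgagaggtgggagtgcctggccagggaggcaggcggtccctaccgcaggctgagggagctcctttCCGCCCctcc
Ndp: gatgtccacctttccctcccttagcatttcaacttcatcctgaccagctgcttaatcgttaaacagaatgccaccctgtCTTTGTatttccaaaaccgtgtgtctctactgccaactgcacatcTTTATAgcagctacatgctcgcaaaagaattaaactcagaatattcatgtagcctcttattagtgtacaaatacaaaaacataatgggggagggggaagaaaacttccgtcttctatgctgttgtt

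The motifs searched on both strands were a GLI site (GACCACCCA), then a TCF/LEF site (CTTTGA or its other common form CTTTGT) and a TATA box (TATAAA). A GC box (GGGCGG) was searched as well, and an AP-1 site (TGANTCA). No GLI match lay in the 8 windows, and 0.218% of 32536 promoters of the same length held one. The Snap91 and Vcan windows, and 1 window each of Alpl and Prom1, held GC boxes, which 33.0% of all promoters hold. The Ndp window held a TCF/LEF match (CTTTGT), found in 27.7% of promoters for either form, and a TATA box on the opposite strand, found in 12.3%. Both Alpl windows held a TCF/LEF match, and 1 of them a TATA box, also on the opposite strand. AP-1 matches, in 6.73% of all promoters, lay in both Prom1 windows, and the Pappa2 window held none of the motifs. Base composition ranged from 41.2% GC with 4 CpG sites in Ndp to 71.2% GC with 26 CpG sites in Snap91, around a median of 52.4% GC over all promoters. The Pappa2 start lies inside the gene as GENCODE draws it, and its window had 49.2% GC with 2 CpG sites.

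Between P20 and P28 in WT papilla 6 of the 9 genes rose, Alpl, Vcan, Enpp2, Ndnf, Snap91 and Crym, with log2 fold changes of 2.18 to 5.09, where 13.5% of 14790 genes were called higher. In P28 Smo* against P28 WT 4 of 9 fell, Snap91, Ndnf, Pappa2 and Crym, with log2 fold changes of -2.50 to -4.66, where 4.85% of 14757 genes were called lower. In Smo* papilla 1 of 9, Alpl, rose from P20 to P28, where 1.98% of 14790 genes were called higher. Between the genotypes at P20, 0 of 9 were called, where 0.696% of 14645 genes were called in either direction. A call means a limma adjusted p under 0.05 over all genes tested, on log2(normalized count + 1), a scale that understates the change of low genes.

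**Figure D2:**
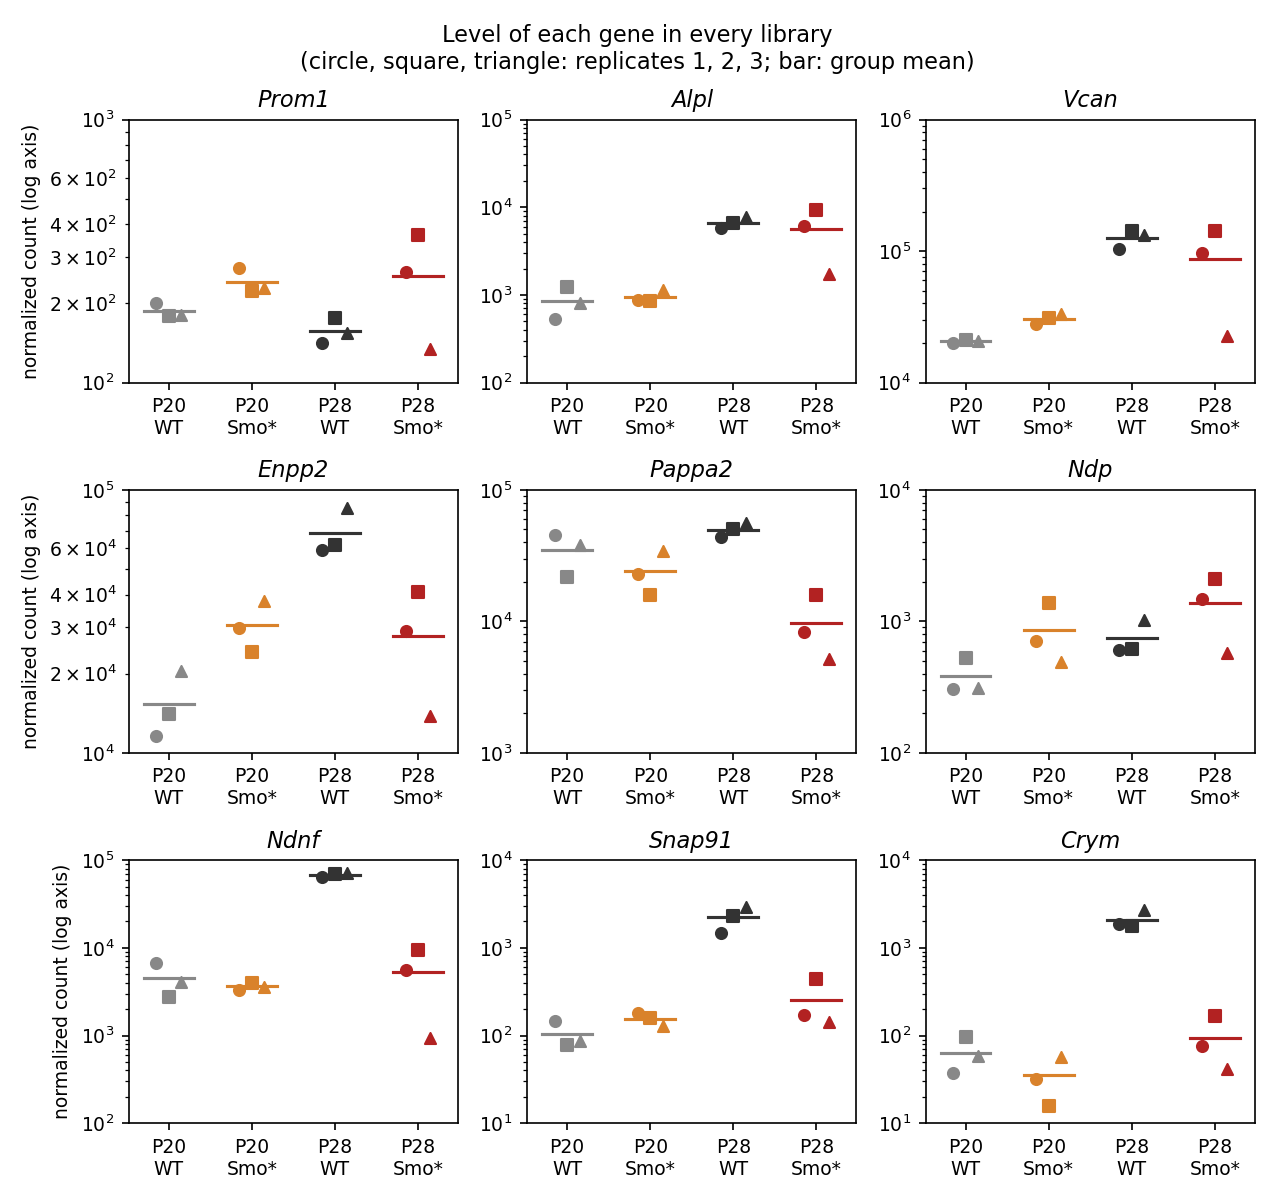
Normalized count (log axis) of each of the 9 genes in the 12 libraries, by group; circles, squares and triangles are replicates 1, 2 and 3 and the bar is the group mean. Snap91, Ndnf and Crym are high in the 3 P28 WT libraries only, whereas Alpl and Vcan are also high in P28 Smo* replicates 1 and 2.

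At P20, where limma called 0 of the 9, 3 had an unadjusted p under 0.05 (Vcan 0.00109, Enpp2 0.00221 and Ndp 0.0184). DESeq2 called those 3 as higher, and edgeR called none. The authors' deposited table did not call Vcan, Enpp2 or Ndp at P20 (adjusted p there of 0.771, 0.0923 and 0.188). Neither did 1 fit of 12 libraries (limma adjusted p of 0.790, 0.315 and 0.480). The groups did not overlap at P20 for 3 genes that were higher in Smo* (Prom1, Vcan and Enpp2), and 8.04% of all genes showed such a separation upward. At P28 the genotypes did not overlap for 5 genes, the 4 called and Enpp2, all lower in Smo*, against 17.8% of all genes. The median log2 fold change of the 9 genes was 0.37 at P20 and -1.41 at P28, beside medians over all genes of 0.0025 and -0.0098.

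The WT ages did not overlap for 7 genes that were higher at P28 and for Prom1, which was lower, against 23.6% and 21.6% of all genes. In Smo* papilla the ages did not overlap for Alpl, higher at P28, against 12.2% of all genes. Of all genes called between the ages in Smo* 57.3% were higher, and 46.5% after quantile normalization. The test of whether the genotype difference itself changed between the ages (the interaction term of 1 fit to 12 libraries) called 4 of 9, all in the negative direction, against 2.83% of genes. The comparisons share libraries, so their values are given side by side and are not independent of one another.

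**Figure D3:**
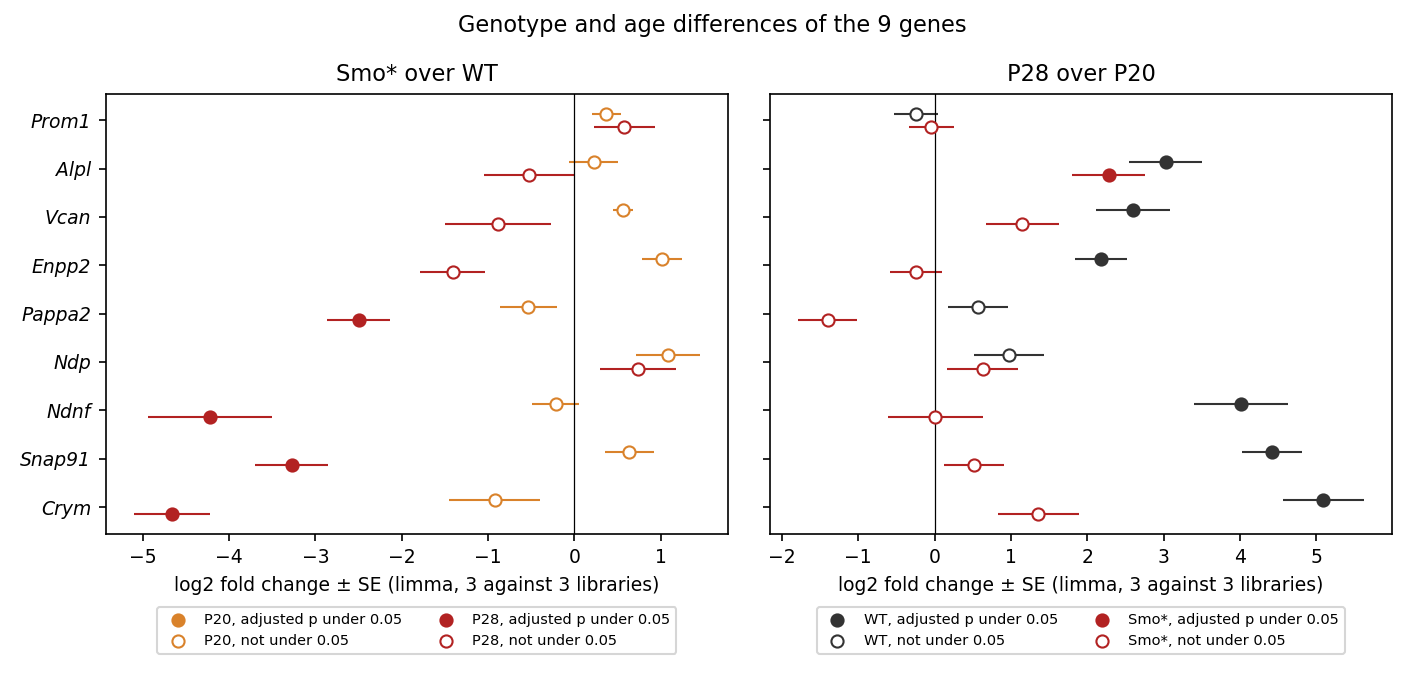
Log2 fold change with its SE (horizontal axis, limma, 3 against 3 libraries) of the 9 genes for Smo* over WT at P20 and P28 (left) and for P28 over P20 in WT and Smo* (right). The SEs on the right come from 1 fit of 12 libraries with a shared spread, so a gene has the same SE in both genotypes. Filled points have an adjusted p under 0.05. On the left the filled points are Pappa2, Ndnf, Snap91 and Crym at P28, from -2.50 to -4.66, and on the right Alpl is the gene filled in both genotypes.

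Among the surface proteins, Prom1 (ENSMUSG00000029086, chr5:43993620-44102032, minus strand, GRCm38) encodes prominin-1 or CD133, a membrane protein of cell protrusions used to isolate papilla cells. Its normalized counts were 200.1, 179 and 180.2 in P20 WT and 274, 223 and 228 in P20 Smo*. The P28 counts were 142, 176 and 155 in WT and 262, 365 and 134 in Smo*. The P20 genotypes did not overlap, and at P28 Smo* replicate 3 fell below every WT library while the other 2 stood above them. The log2 fold change was 0.37 ± 0.17 at P20 (SE, limma adjusted p = 0.469) and 0.58 ± 0.35 at P28 (limma adjusted p = 0.336). Without P28 Smo* replicate 3 the P28 value was 0.98 and called higher (limma adjusted p = 0.0300). With age Prom1 was -0.25 ± 0.29 in WT (limma adjusted p = 0.582) and -0.04 ± 0.29 in Smo* (limma adjusted p = 0.952), and of the 9 genes it alone had all WT counts lower at P28 than at P20. An antisense gene, Gm16401, shares 424 bases of the locus and is not among the tabulated genes.

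Alpl (ENSMUSG00000028766, chr4:137741733-137796384, minus strand) encodes tissue-nonspecific alkaline phosphatase, a membrane-anchored enzyme that releases phosphate at the cell surface. Its counts were 526, 1235 and 816 in P20 WT and 871, 842 and 1151 in P20 Smo*. At P28 they reached 5729, 6563 and 7672 in WT and 6056, 9234 and 1736 in Smo*. All P28 libraries lay above all P20 libraries, and within each age the genotypes overlapped. Alpl rose with age in WT by 3.03 ± 0.48 on the log2 scale (limma adjusted p = 0.000826) and in Smo* by 2.28 ± 0.48 (limma adjusted p = 0.0291). The Smo* call was lost without P20 Smo* replicates 1, 2 or 3 (limma adjusted p of 0.0788, 0.0633 and 0.0756) and without P28 Smo* replicates 1 or 2 (0.0956 and 0.0673). Between genotypes it was 0.22 ± 0.28 at P20 (limma adjusted p = 0.834) and -0.52 ± 0.53 at P28 (limma adjusted p = 0.562), and 0.18 at P28 without Smo* replicate 3.

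Vcan (ENSMUSG00000021614, chr13:89655312-89742509, minus strand) encodes versican, the large chondroitin sulfate proteoglycan of the papilla matrix that binds hyaluronan. Its counts were 20007, 21241 and 20744 in P20 WT and 27738, 30990.5 and 33148 in P20 Smo*. At P28, WT held 104114, 141809 and 133244 and Smo* held 96288, 142994 and 22655. The P20 genotypes did not overlap. At P28, Smo* replicate 1 lay below all WT libraries and replicate 2 above them, both near the WT range. Replicate 3 lay just above the P20 WT libraries. The genotype difference was 0.56 ± 0.12 at P20 (limma adjusted p = 0.0881, DESeq2 adjusted p = 0.000749) and -0.89 ± 0.61 at P28 (limma adjusted p = 0.390), or -0.09 at P28 without that library. Vcan rose with age in WT by 2.60 ± 0.48 (limma adjusted p = 0.00230). In Smo* the age difference was 1.15 ± 0.48 (limma adjusted p = 0.181), and without P28 Smo* replicate 3 it was 1.94 and called (limma adjusted p = 0.000175).

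Of the secreted enzymes, Enpp2 (ENSMUSG00000022425, chr15:54838901-54952892, minus strand) encodes autotaxin, which makes the lipid mediator lysophosphatidic acid outside the cell. Its counts were 11563, 14074 and 20403 in P20 WT and 29733, 24184 and 37712 in P20 Smo*. At P28 they were 58852, 61896 and 84988 in WT and 29173, 40840.0 and 13820.0 in Smo*. The genotypes did not overlap at either age, with Smo* above WT at P20 and below WT at P28. The difference was 1.01 ± 0.23 at P20 (limma adjusted p = 0.124, DESeq2 adjusted p = 0.00172) and -1.41 ± 0.38 at P28 (limma adjusted p = 0.0562). The P20 value was not called in the authors' deposited table (adjusted p there of 0.0923) or in 1 fit of 12 libraries (limma adjusted p = 0.315). The P28 value was called by DESeq2 (-1.29), in the authors' deposited table (-1.15), in 1 fit of 12 libraries (-1.41), and without Smo* replicate 2 (-1.75, limma adjusted p = 0.0250) or replicate 3 (-0.97, limma adjusted p = 0.0469).

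The change of the Enpp2 genotype difference between ages was -2.42 ± 0.49 and passed the test (limma adjusted p = 0.0171), a call lost without P28 WT replicate 3 (limma adjusted p = 0.0540). Enpp2 rose with age in WT by 2.18 ± 0.34 (limma adjusted p = 0.000807), whereas in Smo* the age difference was -0.24 ± 0.34 (limma adjusted p = 0.718). Gm26684, on the opposite strand over 345 shared bases, held between 2.56 and 11.97 normalized counts, far below Enpp2 in every library.

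Pappa2 (ENSMUSG00000073530, chr1:158711727-158980490, minus strand) encodes pappalysin-2, a secreted metalloprotease that cleaves insulin-like growth factor binding proteins. Its counts were 45465, 21669.6 and 38371 in P20 WT and 22941, 15878 and 34155 in P20 Smo*. The P28 counts were 44005, 50007 and 55804 in WT and 8256, 15961 and 5150.0 in Smo*. The P20 genotypes overlapped, the P28 WT libraries overlapped the P20 WT libraries, and all P28 Smo* libraries lay below all P28 WT libraries. Pappa2 fell by 2.50 ± 0.36 on the log2 scale in P28 Smo* (limma adjusted p = 0.00577), with -2.11 without Smo* replicate 3 (limma adjusted p = 0.00261). At P20 the difference was -0.53 ± 0.33 (limma adjusted p = 0.607), and the change between ages, -1.97 ± 0.55, did not pass (limma adjusted p = 0.0623) except by DESeq2 (adjusted p = 0.00989) and without P28 Smo* replicate 2 (limma adjusted p = 0.0151).

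Of the 4 genes that fell in P28 Smo*, Pappa2 alone was not called with age in WT, at 0.57 ± 0.39 (limma adjusted p = 0.321). In Smo* the age difference was -1.40 ± 0.39 (limma adjusted p = 0.0651), called without P28 Smo* replicate 2 (-1.83, limma adjusted p = 0.0348) and by DESeq2 (-1.32). P28 Smo* replicates 1, 2 and 3 held 16.5%, 32.0% and 10.3% of the P28 WT mean, and P20 WT held 70.4%. All 3 P28 Smo* libraries lay below the lowest library of both WT groups.

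Of the secreted ligands, Ndp (ENSMUSG00000040138, chrX:16885521-16911774, minus strand) encodes norrin, a ligand that activates beta-catenin signalling through Fzd4 with Lrp5 and Tspan12. Its counts were 307, 526 and 312 in P20 WT and 706, 1390.3 and 489 in P20 Smo*. At P28, WT held 604, 615 and 1029 and Smo* held 1472, 2093 and 578. The genotypes overlapped at both ages, at P20 through WT replicate 2 and Smo* replicate 3, and at P28 through Smo* replicate 3. The difference was 1.08 ± 0.37 at P20 (limma adjusted p = 0.310, DESeq2 adjusted p = 0.0346) and 0.74 ± 0.44 at P28 (limma adjusted p = 0.326). Without P28 Smo* replicate 3 the P28 value was 1.27 and called higher (limma adjusted p = 0.0188). With age it was 0.97 ± 0.46 in WT (limma adjusted p = 0.145) and 0.63 ± 0.46 in Smo* (limma adjusted p = 0.445).

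Ndnf (ENSMUSG00000049001, chr6:65671590-65712326, plus strand) encodes neuron-derived neurotrophic factor, a secreted fibronectin type III protein. Its counts were 6710.3, 2781 and 4066 in P20 WT and 3323, 4017 and 3618 in P20 Smo*. At P28 they were 64876, 68956 and 71256 in WT and 5567, 9436 and 943 in Smo*. All 3 P28 WT libraries stood far above the other 9, and P28 Smo* replicate 3 was the lowest of the 12. Ndnf rose with age in WT by 4.01 ± 0.62 on the log2 scale (limma adjusted p = 0.000706), which is 16.1-fold, and was 0.01 ± 0.62 with age in Smo* (limma adjusted p = 0.994). It fell by 4.22 ± 0.72 in P28 Smo* (limma adjusted p = 0.0116), with -3.24 without Smo* replicate 3 (limma adjusted p = 0.000182). That call was lost without P28 WT replicate 2 (-4.21, limma adjusted p = 0.0572).

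The Ndnf genotype difference changed between the ages by -4.00 ± 0.87 (limma adjusted p = 0.0248), from -0.22 ± 0.28 at P20 (limma adjusted p = 0.833). This call was lost without P20 Smo* replicates 2 or 3 (limma adjusted p of 0.0552 and 0.0524), P20 WT replicates 2 or 3 (0.0666 and 0.0541) or P28 WT replicates 2 or 3 (0.0629 and 0.0694).

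Inside the cell, Snap91 (ENSMUSG00000033419, chr9:86765923-86880654, minus strand) encodes AP180, which assembles clathrin coats and is best known from synaptic vesicle recycling. Its counts were 145, 77.0 and 87.7 in P20 WT and 182, 160.3 and 127 in P20 Smo*. The P28 counts were 1474, 2324 and 2889 in WT and 173, 440.0 and 142 in Smo*. Every P28 WT library lay above the other 9, and the P28 Smo* libraries overlapped those of P20 Smo*. Snap91 rose with age in WT by 4.42 ± 0.39 on the log2 scale (limma adjusted p = 1.62e-05), which is 21.4-fold, and was 0.51 ± 0.39 with age in Smo* (limma adjusted p = 0.464). It fell by 3.27 ± 0.42 in P28 Smo* (limma adjusted p = 0.00334). At P20 the estimate was higher in Smo*, by 0.63 ± 0.28, and was not called (limma adjusted p = 0.454). The difference between the ages was -3.91 ± 0.56 (limma adjusted p = 0.00283), and -3.59 without P28 Smo* replicate 3.

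Crym (ENSMUSG00000030905, chr7:120186380-120202111, minus strand) encodes mu-crystallin, which binds thyroid hormone in the cytosol. Its counts were 37.3, 96.8 and 57.8 in P20 WT and 32.0, 15.7 and 57.5 in P20 Smo*. At P28 they were 1849, 1769.7 and 2681 in WT and 76.0, 165 and 41.7 in Smo*. The P28 WT libraries again lay above the other 9, and the P28 Smo* libraries overlapped both P20 groups. Crym had the largest differences of the set, a rise of 5.09 ± 0.53 with age in WT (limma adjusted p = 5.00e-05), which is 34.2-fold, and -4.66 ± 0.44 in P28 Smo* (limma adjusted p = 0.000815), which is 25.2-fold lower. Without P28 Smo* replicate 3 it was -4.19 (limma adjusted p = 0.000236). The authors' deposited table gave -3.35 ± 0.42 for Crym at P28, with no p-value for it at either age. At P20 the genotype difference was -0.92 ± 0.53 (limma adjusted p = 0.571). With age in Smo* it was 1.36 ± 0.53 (limma adjusted p = 0.154), called by DESeq2 (1.43). The change between the ages was -3.73 ± 0.75 (limma adjusted p = 0.0171), a call lost without P28 WT replicate 3 (limma adjusted p = 0.0582).

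For Prom1, Alpl, Vcan, Ndp and Pappa2 the genotype difference was not shown to differ between the ages, at 0.21 ± 0.41, -0.75 ± 0.68, -1.45 ± 0.68, -0.34 ± 0.65 and -1.97 ± 0.55 on the log2 scale (limma adjusted p of 0.806, 0.557, 0.241, 0.797 and 0.0623).

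The P28 Smo* libraries did not differ from WT evenly over the 9 genes. As a share of the P28 WT mean, replicates 1, 2 and 3 held 3.62%, 7.86% and 1.99% of Crym and 7.76%, 19.7% and 6.38% of Snap91. For Ndnf the shares were 8.14%, 13.8% and 1.38%. At the other end, Alpl stood at 91.0%, 139% and 26.1% and Vcan at 76.2%, 113% and 17.9%. Replicates 1 and 2 thus had Alpl and Vcan near the level of P28 WT with Crym, Snap91 and Ndnf at 19.7% of it or less. The same pair of libraries held 167% and 232% of the Prom1 mean and 196% and 279% of the Ndp mean. Of the 14 other papilla genes, 1 rose in P28 Smo* (Sox18) and 6 fell (Corin, Lef1, Rspo4, Alx4, Fgf10 and Nog). Of all 14757 genes, 4.05% were called higher there and 4.85% lower. At P20, 3 of the 14 were higher in Smo*, Hhip (log2 fold change 3.53), Sox18 (3.14) and Alx4 (1.53), where 0.485% of all genes were. With age in WT, 10 of the 14 rose, where 13.5% of all genes did. A few of the 14, chosen after their values were seen, show the range. Sox18, a transcription factor, stood at 251%, 447% and 494%, and Sox2, a transcription factor of some papilla subtypes, at 228%, 432% and 84.6%. Corin, a membrane protease of the papilla, stood at 5.67%, 10.7% and 1.03%, and Rspo4, a Wnt agonist, at 1.68%, 5.66% and 1.04%.

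All 9 genes ranked the P28 Smo* libraries in the same order, replicate 2 highest and replicate 3 lowest, as did the papilla sum and 12 of the 14 papilla genes. Sox18 was highest in replicate 3, and Prdm1 was highest in replicate 1, at 151%, 130.3% and 53.9% of the P28 WT mean. Over all 14757 genes 20.4% had that order, and 40.7% had replicate 3 lowest. For comparison, the P20 WT mean was 3.05% of the P28 WT mean for Crym, 4.63% for Snap91 and 6.61% for Ndnf. The P20 Smo* mean was 1.67%, 7.01% and 5.34% of it for these 3 genes.

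**Figure D4:**
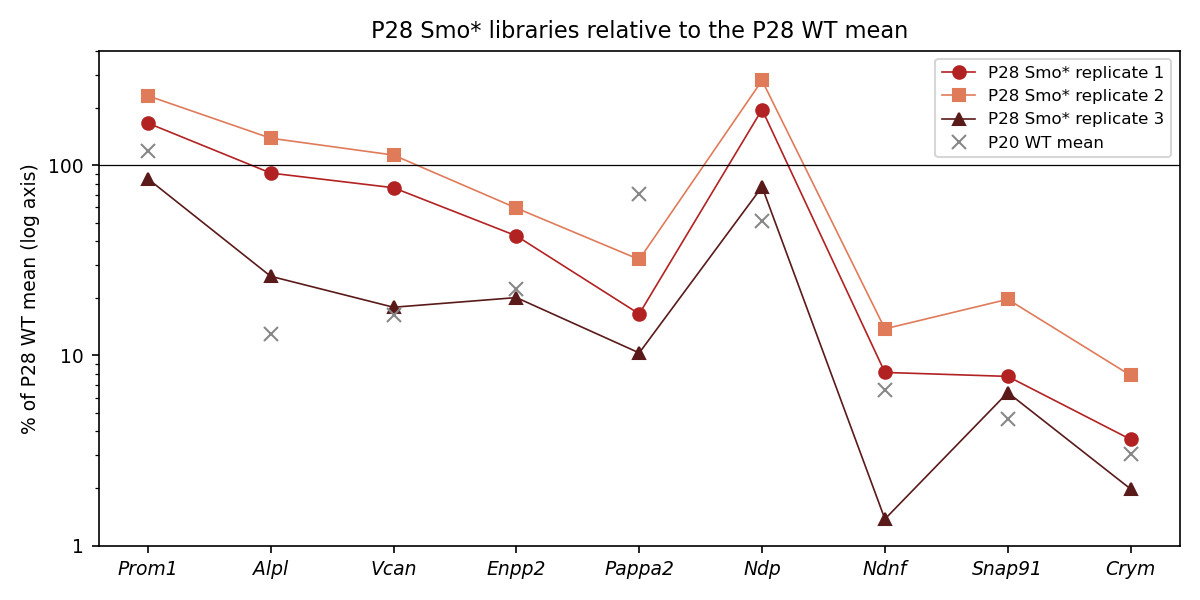
Normalized count of the 9 genes in each P28 Smo* library as a percentage of the P28 WT mean (log axis), with the P20 WT mean as crosses; lines join the genes of 1 library and carry no order. Prom1 and Ndp lie above 100% in replicates 1 and 2, Alpl and Vcan near it, and Ndnf, Snap91 and Crym under 20% in all 3 libraries.

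Levels between genes were compared per kilobase of annotated exon. In P28 WT the order was Enpp2 (11867 ± 2473 normalized counts per kb, SD, n = 3), Vcan (8739 ± 1366), Ndnf (6759 ± 319), Pappa2 (4851 ± 573), Alpl (1650.1 ± 242), Crym (619 ± 149), Ndp (387 ± 125), Snap91 (244 ± 78.0) and Prom1 (21.9 ± 2.40). Neighbours whose spreads of 1 SD overlapped were Enpp2 and Vcan, Crym and Ndp, and Ndp and Snap91. In P20 WT, Pappa2 (3416 ± 1187) and Enpp2 (2656 ± 788) led with overlapping spreads, followed by Vcan (1429 ± 42.9). Prom1 (26.0 ± 1.65), Crym (18.9 ± 8.91) and Snap91 (11.3 ± 3.99) had the lowest means there. The spread of Crym overlapped those of Prom1 and Snap91. In P20 Smo* the leading gene was Enpp2 (5285 ± 1177), ahead of Pappa2 (2363 ± 895) and Vcan (2118 ± 188). In P28 Smo* Vcan (6037 ± 4195) and Enpp2 (4835 ± 2345) had the highest means, and the spread of Vcan overlapped those of Enpp2 and Alpl (1407 ± 933). Ndnf (526 ± 420.4) stood in the sixth place there, against the third in P28 WT, with overlapping spreads from Alpl down to Ndnf.

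The partners of these proteins were read from 11 lists of genes. Beside the calls of every list at P28, 4.05% of all 14757 genes tested were called higher and 4.85% lower. Because several of the lists hold a handful of genes, called genes are named; those outside the rule for named genes (Hapln1 and Adamts15 at P28, Stc1, Igfbp2 and Amph) were chosen after their values were seen. Around versican, of 14 tested matrix partners 3 rose in P28 Smo* (Hapln3 1.12, a hyaluronan link protein, Fbln2 0.90, a matrix glycoprotein, and Acan 0.94, the related proteoglycan) and 1 fell (Hapln1 -1.45, another link protein). At P20, where 0.485% of all genes were called higher, Hapln3 alone of the 14 rose (1.74). Of 9 proteases that can cleave versican, 4 rose in P28 Smo*, where 4.05% of all genes tested were called higher. Adamts20 rose from 46.9 ± 9.82 to 579 ± 129 normalized counts (log2 3.60, limma adjusted p = 0.000237) and Adamts8 from 314 ± 68.6 to 685 ± 78.4 (1.14, limma adjusted p = 0.0130). The other two were Adamts4 (1.30) and Adamts15 (1.04). At P20 Adamts9 (1.98) and Adamts15 (1.84) rose. The median log2 fold change of the protease list was 0.90 at P28.

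For Pappa2, 14 genes of the pappalysin and IGF-binding-protein axis were tested. Pappa, the paralogous pappalysin, fell in P28 Smo* from 15309 ± 2664 to 2893 ± 734 (-2.42, limma adjusted p = 0.000578), close to the change of Pappa2 itself (-2.50). Igf1r, the receptor, also fell (-0.81, limma adjusted p = 0.00649). Igfbp4, an IGF-binding protein, rose at both ages, from 5877 ± 1439 to 35674 ± 5056 at P20 (2.62, limma adjusted p = 0.00235) and by 1.07 at P28. Stc1 (1.33) and Igfbp2 (0.72) also rose at P28. Stc2, a secreted inhibitor of pappalysins, fell at P20 from 4009.5 ± 1753 to 492 ± 253 (-3.06, limma adjusted p = 0.0179) and was 626 ± 69.2 in P28 WT and 583 ± 149 in P28 Smo*.

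Of the norrin receptor complex and its targets, 9 genes were tested at P28 and 3 fell, where 4.85% of all genes were called lower. Tspan12, the tetraspanin co-receptor, fell from 405 ± 78.1 to 168 ± 24.3 (-1.26, limma adjusted p = 0.0105), and the beta-catenin partner Lef1 (-1.99) and target Axin2 (-1.46) fell. Fzd4, the norrin receptor, was 3329 ± 1067 in P28 WT and 4582 ± 592 in P28 Smo* (0.50, limma adjusted p = 0.195). At P20, 1 of 8 tested genes rose, Lgr4 (0.91, limma adjusted p = 0.0169). In the autotaxin and lysophosphatidic acid list of 11, the receptor Lpar4 fell at P28 from 1167 ± 126 to 519.8 ± 65.5 (-1.17, limma adjusted p = 0.00308) and the lipid phosphatase Plpp1 rose (0.59). Of the 4 tested relatives of Enpp2 in the ENPP family, Enpp5 was 986 ± 163 in P28 WT and 680.3 ± 122 in P28 Smo* (-0.54, limma adjusted p = 0.114) and Enpp1 was 294 ± 105 and 165 ± 39.5 (-0.80, limma adjusted p = 0.133).

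Among 5 genes tested with prominin, Ttyh1, a tweety family membrane protein, fell at P28 from 843 ± 89.6 to 197 ± 56.9 (-2.12, limma adjusted p = 0.00133). Of 7 phosphate and pyrophosphate genes tested with Alpl, the phosphate transporter Slc20a1 (0.96) and the matrix phosphoprotein Spp1 (3.33) rose at P28. In the thyroid hormone list of 12, Dio3, the deiodinase that inactivates the hormone, fell at P28 from 237 ± 159 to 18.9 ± 8.28 (-3.45, limma adjusted p = 0.00689) and the receptor Thrb fell (-1.56), while the transporter Slc16a10 rose (0.93). Of 23 clathrin genes tested with Snap91, the vesicle-cutting GTPase Dnm1 (0.74) and the adaptor subunit Ap2a2 (0.55) rose at P28. The synaptic vesicle sensor Syt1 fell from 36.2 ± 16.9 to 1.32 ± 1.43 (-4.08), and Amph, amphiphysin, also fell. In the list of factors related to Ndnf, Fndc1, a matrix protein, fell at P20 (-0.64).

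Of the 29 genes of these lists called at P28, 7 kept the call in every alternative run: Adamts20, Adamts8, Dio3, Igf1r, Lpar4, Pappa and Ttyh1. The other 22 lost it in at least 1. Leaving out P28 WT replicate 2 ended 21 of the calls (limma adjusted p of 0.0517 to 0.179), replicate 3 ended 18 (0.0534 to 0.191) and replicate 1 ended 10 (0.0501 to 0.105). Leaving out P28 Smo* replicates 1, 2 and 3 ended 17 (0.0514 to 0.106), 10 (0.0591 to 0.102) and 5 (0.0555 to 0.0703). At P20, Igfbp4 alone of 7 kept its call, and leaving out P20 Smo* replicate 2 or P20 WT replicate 2 each ended the other 6 (limma adjusted p of 0.0649 to 0.129 and 0.0574 to 0.124). Leaving out P20 Smo* replicates 1 and 3 ended 3 and 1 of them, and P20 WT replicates 1 and 3 ended 2 and 3.

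For each marker the genes with the most similar course over the 12 libraries were found by Pearson's r of log2 values among 11974 genes, a description of libraries that share their groups. Vcan was nearest to Serpine2 (0.986), Frem1 (0.984) and Wif1 (0.983), and Alpl to Chil1 (0.980), Luzp2 (0.980) and Plppr1 (0.977). Crym was nearest to Tmem176b (0.980), Rspo4 (0.979) and Emb (0.976), and Snap91 to Hoxb3 (0.987), Emilin1 (0.982) and Adam22 (0.981). Ndnf was nearest to Robo1, Scarb2 and Cemip2 (each 0.986), and Enpp2 to Tcp11l1 (0.981), Polr3c (0.966) and Acot1 (0.957). The highest r was lower for the 3 markers not called with age in WT. Ndp was nearest to Pfn2 (0.915), Snrpn (0.910) and Sox2 (0.899), Prom1 to N4bp3 (0.927), Tgfa (0.925) and Ppp1r16b (0.909), and Pappa2 to Ppm1l (0.952), Ramp3 (0.942) and Flrt1 (0.941).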

How the data were processed

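FACS-sorted dermal papilla RNA (100 ng, depleted of ribosomal RNA, strand-marking kit) was sequenced per the labels' protocols. Per the submitters' processing notes, Trimmomatic, TopHat2, HTSeq and DESeq2 were used with mm10 and GRCm38.p4, in roles that are not stated. The use of strand in counting is not stated either. The deposited tables, 1 per age, hold normalized counts (a signal: counts divided by a size factor per library). Per the file headers they also give log2 fold changes by the authors, SEs, a test statistic (score), a p-value and an adjusted p-value. The log2 fold change is WT over Smo* there, so its sign was turned. Whole reads were recovered for 100.0% of values within 0.01 reads. Both tables were normalized together, since the deposited mean equals the 12-library mean within 0.000417. GENCODE (GRCm38) named 25562 of 25887 identifiers, and 0 sample columns were left unused.

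Genes with a mean of at least 10 were tested with limma 3.58.1 (trend) in R 4.3.3 on log2(normalized count + 1), over the 6 libraries of an age for genotype and over 12 for age and the interaction, with Benjamini-Hochberg adjustment at 0.05. Alternatives were TMM, quantile normalization, a minimum mean of 50 or none, a pseudocount of 0.5 or 5, robust empirical Bayes, edgeR 4.0.16 and DESeq2 1.42.0 on recovered reads, 1 fit of 12 libraries, the authors' values and leaving out each library. Scripts were tested on simulated counts. Group values are mean ± SD (n = 3), and errors of fold changes are limma's SE. With 3 against 3, an exact permutation test of 1 value cannot go below 0.1. Replicates are numbered in accession order and are not paired. Named genes were the 9 markers, up to 3 genes of each of 11 pathway lists by adjusted p at P28 and 2 at P20, the 3 genes most like each marker, and Smo and Gli1. A gene that this rule names is not reported here. The genes and lists were chosen with earlier results of these data known.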

Additional observations from a re-analysis of the deposited data

Results flagged for a closer look

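For 4 genes the genotype difference was tested to change between the ages, by the interaction term of 1 limma fit of 12 libraries, where 2.83% of 14790 genes were called in the negative direction. The genotype difference at P28 minus that at P20, on the log2 scale, was -3.91 for Snap91, -2.42 for Enpp2, -4.00 for Ndnf and -3.73 for Crym. For Snap91 and Enpp2 the estimate was positive at P20 (0.63 and 1.01) and negative at P28 (-3.27 and -1.41). The P20 estimates of all 4, and the P28 estimate of Enpp2, did not pass limma's test by themselves. Genotype and growth stage cannot be told apart at P28, and sex and age differ together between the ages.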

How the results depend on the processing

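In WT all 6 rises with age kept the call and direction in all 21 alternatives. The P28 falls of Snap91, Pappa2 and Crym kept theirs in all that gave a value, and the Snap91 interaction in all 21. DESeq2 called more genes: 480 at P20 (limma 102), 2296 at P28 (1313), 1615 with age in Smo* (511) and 1482 for the interaction (698), with 3 of the markers higher at P20 and 3 higher and 1 lower with age in Smo*. The authors' deposited table called 342 and 2880 genes, and 1 fit of 12 libraries called 2058 at P28.

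Leaving out 1 library at a time gave 8 to 129 genes at P20, with 8, 19 and 42 without WT replicate 2, Smo* replicate 2 and WT replicate 1. At P28 it gave 461 to 1619 genes, with 461, 472 and 795 without WT replicates 3, 2 and 1 and 852 without Smo* replicate 1. With age in WT it gave 2336 to 4423 (3761 with all), the lowest without P28 WT replicate 3. With age in Smo* it gave 49 to 1049, with 49, 236 and 1049 without P28 Smo* replicates 1, 2 and 3, 178 and 83 without P20 Smo* replicates 1 and 3, and 311, 316 and 332 without P20 WT replicate 2 and P28 WT replicates 2 and 3. In the interaction it gave 254 to 922, with 254 and 309 without P28 WT replicates 3 and 2, 329 and 405 without P20 WT replicates 2 and 3, 420 and 400 without P20 Smo* replicates 2 and 3, and 462 without P28 Smo* replicate 1. Of the markers, 0 to 2 were then higher and 3 to 5 lower at P28, with 2 higher without Smo* replicate 3. With age in Smo*, 0 to 2 were higher, 2 without P28 Smo* replicate 3 and 0 without any other Smo* library, and 0 to 1 lower, that 1 without P28 Smo* replicate 2. In the interaction 1 to 5 were called, with 1 left without P28 WT replicate 3.

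Estimates that reversed belonged to markers without a call. Leaving out 1 library, Alpl ranged from -0.087 to 0.53 at P20 and from -1.03 to 0.18 at P28, and Ndnf from -0.52 to 0.11 at P20. With age in Smo*, Ndnf ranged from -0.67 to 0.99, Prom1 from -0.36 to 0.36 and Enpp2 from -0.58 to 0.20. In the interaction Prom1 ranged from -0.11 to 0.61 and Ndp from -0.74 to 0.19. With age in Smo*, Ndnf was also -0.028 after quantile normalization, and Prom1 0.059 by edgeR and 0.071 by DESeq2. Beyond the fewer libraries, the cause was not tested. No scaling moved the median of all genes by over 0.1 on the log2 scale. No paired analysis was possible because the labels give no replicate numbers that groups share. Crym had the fewest reads, 18 in its lowest library, so depth limits Crym at P20 most.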
